A study of Caenorhabditis elegans with 6 samples.

Results

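The lipl genes of Caenorhabditis elegans encode lipases related to the mammalian lysosomal acid lipase. All genes named lipl-1 to lipl-8 were taken as the family. Of these 8 genes, 7 were listed in both tables of expression values, among 17399 genes listed in either table and 15207 listed in both. lipl-8 was listed in neither table and was not analysed here. The values come from RNA sequencing of whole adult worms of the wild-type strain N2. Synchronized young adults were kept for 7 days at 20°C on plates with 0.1 μM vitamin K2 (VK2; libraries T1, T2, and T3) or on plates without VK2 (control; libraries C1, C2, and C3), and all worms were moved every day to remove their progeny. The sources used here do not say whether the 3 libraries of a group came from separate cultures, so a p-value measures the spread between these libraries, which may be technical. The question was whether the transcripts of these lipases differ between worms kept with and without VK2.

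Lysosomal lipases split the neutral lipids that reach the lysosome, and the fatty acids set free are burned, stored again, or used as signals. In worms the intestine is the main fat depot. LIPL-4 is known for a signal from the lysosome to the nucleus: it frees fatty acids that the lipid-binding protein LBP-8 carries to the nuclear receptors NHR-49 and NHR-80, and worms with extra LIPL-4 live longer. Several lipl genes are also known to rise on fasting, and the repressor MXL-3 and the activator HLH-30, the worm relative of TFEB, act on them in opposite directions.

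Levels are given in FPKM (fragments mapped to a transcript, scaled for its length and for the mapped fragments of the library), summed over the transcripts of a gene. T1 and C1 were deposited in one table, and T2, T3, C2, and C3 in another. The tables were treated as normalized separately, since their FPKM sums ran between 654910 and 686279 in the first and between 369349 and 396004 in the second. Levels were therefore compared only within a table. Low FPKM values did not fall on whole multiples of a fragment. The sequencing depth behind them is unknown, and no interval from counting error is given.

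The libraries were not alike. The control library C3 stood apart, with an SD over genes of the log2 difference of 0.69 between C2 and C3, against 0.29 between T2 and T3. The yolk protein genes, made in the intestine for the oocytes, summed to 7093, 4595, and 6009 FPKM in T1, T2, and T3, and to 6978, 6548, and 934 FPKM in C1, C2, and C3, and all 6 were lowest in C3 among the libraries of the second table, where C3 was lowest for 49% of the 14191 genes tested. The germline markers summed to 2563, 1042, and 1023 FPKM in T1, T2, and T3 and to 2514, 1266, and 581 FPKM in C1, C2, and C3, with 19 of 20 lowest in C3 (again beside 49% of all genes). The sperm markers summed to 853, 580, and 591 FPKM in VK2 worms and to 465, 545, and 315 FPKM in control worms, with 17 of 18 lowest in C3, beside the same 49%. The intestine markers differed less, with sums of 3548, 2976, and 3355 FPKM in VK2 worms and 3113, 3458, and 3357 FPKM in control worms. None of the tested markers of any tissue was listed at 0 in a library. The part that the state of the germline or the yolk genes in C3 has in the values of the lipl genes was not tested. In RNA from whole worms, fewer cells of a type and less RNA per cell cannot be told apart.

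lipl-1, lipl-2, and lipl-3 varied together. lipl-1, one of the lysosomal lipases induced by fasting, lies on chromosome V at chrV:12919986-12921692 of WBcel235, on the forward strand. It had 106, 71.9, and 61.4 FPKM in T1, T2, and T3, against 128, 54.3, and 21.1 FPKM in C1, C2, and C3. In the second table both VK2 libraries were above both control libraries, while in the first table T1 was below C1. lipl-2 lies at chrV:9791567-9793241 on the forward strand. It had 123, 104, and 73.9 FPKM in T1, T2, and T3, against 108, 54.4, and 19.4 FPKM in C1, C2, and C3. T1 was above C1, and the 2 groups did not overlap in the second table.

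lipl-3 was the member with the largest ratio between libraries of a table. It lies at chrV:521595-524218 on the reverse strand, and its 3′ end overlaps srw-107, a gene on the same strand that neither table lists. It had 6.42, 22.7, and 16.3 FPKM in T1, T2, and T3, against 5.74, 12.2, and 1.00 FPKM in C1, C2, and C3. Again the 2 groups did not overlap in the second table, and C3 stood alone at the low end. Ranked by level among the 14191 genes tested, lipl-3 was at the 5.93 percentile in C3 and at the 52.3 percentile in C2, against the 72.5 percentile in T2 and the 61.8 percentile in T3.

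**Figure D1:**
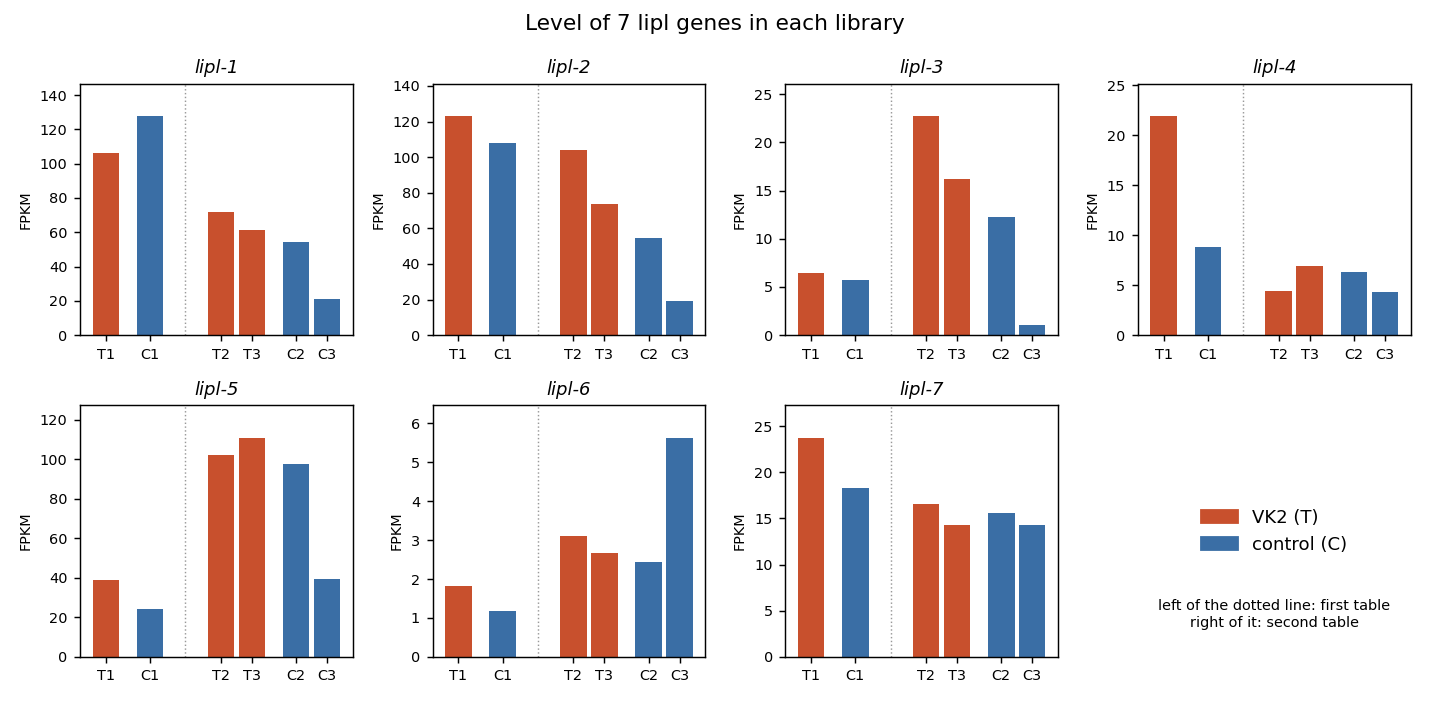
Level of each of the 7 lipl genes in every library, in FPKM summed over transcripts, 1 panel per gene with its own axis from 0. Bars are single libraries, VK2 (T) left of control (C) within each table, and the dotted line divides the first table from the second. lipl-1, lipl-2, lipl-3, and lipl-5 were above both C2 and C3 in T2 and T3, for lipl-5 only with its non-coding transcript ZK6.7b counted. Within the second table lipl-6 was highest in C3, at 5.62 FPKM.

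lipl-4 and lipl-5 were the members that the study also measured by real-time PCR, and its primers are shown because they are the sequences used to assay these members. Both genes are on chromosome V. Each primer is written from its 5′ end, in lower case throughout. Where the primers bind within the transcripts was not determined here.
lipl-4 forward: gccgagaagttcctacatcg
lipl-4 reverse: ccagcactttgatgaggtga
lipl-5 forward: catgtgttggaggtcactgg
lipl-5 reverse: cttcgcgaaacttccatcat
All 4 primers have 20 bases, and their share of G and C is 55% and 50% for lipl-4 and 55% and 45% for lipl-5, forward primer first.

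lipl-4, the member that signals through LBP-8, lies at chrV:6550171-6552186 on the forward strand. A tRNA gene and the non-coding RNA K04A8.15, both on the reverse strand, overlap it. The library kit keeps strand, but no source used here says whether the quantification used it, and reads from those genes cannot be set apart from those of lipl-4. The gene had 21.9, 4.46, and 6.91 FPKM in T1, T2, and T3, against 8.82, 6.32, and 4.32 FPKM in C1, C2, and C3. T1 was 2.48 times C1, whereas in the second table T2 and T3 lay on either side of C2 and both groups overlapped.

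lipl-5, a further lysosomal lipase of the family, lies at chrV:385746-387740 on the forward strand. It had 38.7, 102, and 111 FPKM in T1, T2, and T3, against 24.4, 97.5, and 39.3 FPKM in C1, C2, and C3. T1 was 1.58 times C1, T3 was 2.82 times C3, and T2 was 1.05 times C2. The groups did not overlap in the second table, by a margin of T2 over C2 that was small beside the distance between C2 and C3. On its coding transcripts alone T2 was below C2, and the groups overlapped.

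For lipl-6 and lipl-7, the VK2 libraries of the second table were not both above both control libraries. lipl-6, at chrV:6931475-6934312 on the reverse strand, had 1.81, 3.11, and 2.66 FPKM in T1, T2, and T3, against 1.17, 2.44, and 5.62 FPKM in C1, C2, and C3. It was the only one of the 7 members that was highest in C3 among the libraries of the second table, where 29.3% of the 14191 genes tested were. lipl-7, the only listed member on another chromosome (chrIV:10239278-10241823, reverse strand), had 23.7, 16.5, and 14.3 FPKM in T1, T2, and T3, against 18.3, 15.6, and 14.2 FPKM in C1, C2, and C3. Its values in the second table lay close together in both groups.

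The order of the levels, which FPKM allows across genes because it is per length, depended on the table. In the first table lipl-2 and lipl-1 were highest, with ranges over T1 and C1 that overlapped, followed by lipl-5, by lipl-7 and lipl-4, which overlapped, by lipl-3, and by lipl-6. In the second table the VK2 libraries gave the order lipl-5, lipl-2, lipl-1, lipl-3, lipl-7, lipl-4, and lipl-6, and the neighbours lipl-5 and lipl-2, and lipl-3 and lipl-7, overlapped. The control libraries C2 and C3 gave lipl-5, lipl-1, lipl-2, lipl-7, lipl-3, lipl-4, and lipl-6. Among the controls lipl-7 was above lipl-3 without overlap, whereas lipl-5, lipl-1, and lipl-2 overlapped each other, as did lipl-3, lipl-4, and lipl-6. Ranked by its summed level, lipl-5 was near the top of the tested genes in T2, T3, and C2, at the 96.2, 96.2, and 95.4 percentile, and at the 86.9 percentile in C3. In the second table that sum holds the non-coding transcript ZK6.7b, which the first table does not list. On its coding transcripts alone, lipl-5 had 47.9, 59.2, 51.0, and 16.4 FPKM in T2, T3, C2, and C3. These values were below those of lipl-2 and lipl-1 in each of these libraries.

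Within pairs of the same number, the members were mostly higher with VK2, and the size of the difference varied from pair to pair. Differences were taken on the scale of log2(FPKM + 1), VK2 minus control. Between T1 and C1, 6 of 7 members were higher in T1, where 51.2% of the 14191 genes tested were, and the members' median difference was 0.35, against 0.01 over all genes. lipl-4 had the largest of these differences, 1.22, and lipl-1 was the exception, at -0.26. On this scale lipl-4 and lipl-5 were at least 1.5 times higher in T1 (9.48% of all genes) and 0 members at least 1.5 times lower (3.52%). Between T2 and C2, 6 of 7 were higher in T2, where 37.9% of all genes were, and the median was 0.26, against -0.07 over all genes. Here lipl-2, at 0.92, and lipl-3, at 0.84, differed most, and lipl-4 was the exception, at -0.42. Those 2 members were at least 1.5 times higher in T2 (4.02% of all genes) and 0 members at least 1.5 times lower (2.58%). Between T3 and C3, 6 of 7 were higher in T3, where 59.3% of all genes were, and the median was 1.47, against 0.11 over all genes. lipl-3 differed by 3.11 in this pair, lipl-2 by 1.87, lipl-1 by 1.497, and lipl-5 by 1.47, while lipl-6 was lower in T3 by a difference of -0.85. These 4 members were at least 1.5 times higher in T3 (14.8% of all genes), and lipl-6 was at least 1.5 times lower (10.9%). The 4 members that were higher in all 3 pairs were lipl-2, lipl-3, lipl-5, and lipl-7, a pattern seen in 10.8% of all genes, and no member was lower in all 3 pairs (9.32% of all genes). For lipl-5 the second pair was above 0 only with the non-coding transcript ZK6.7b, which the second table alone lists. On its coding transcripts T2 was below C2, at 47.9 FPKM in T2 and 51.0 FPKM in C2, so that it was higher in 2 of 3 pairs.

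No lipl gene differed between VK2 and control worms past the threshold. A limma model of all 6 libraries held VK2 and the table as terms. In it 0 of the 14191 genes had an adjusted p below 0.05 (0%), and the smallest adjusted p was 0.708. At an unadjusted p below 0.05, 407 genes were higher (2.87%) and 100 lower (0.705%) in VK2 worms, with 1 and 0 of the 7 members among them. An F-test built as in Ballgown also gave 0 genes at an adjusted p below 0.05, and 416 at an unadjusted p below 0.05. The adjusted p was 1.00 for each of the 7 members.

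The single member at an unadjusted p below 0.05 was lipl-2, with a fitted log2 difference of 0.99 (SE 0.42, 95% interval 0.0025 to 1.98, limma adjusted p = 1.00), higher in VK2 worms in 3 of 3 pairs. lipl-5 had a fitted difference of 0.73 (SE 0.31, 95% interval -0.01 to 1.47), and lipl-3 one of 1.36 (SE 0.71, 95% interval -0.31 to 3.04). Both were higher in 3 of 3 pairs (lipl-5 in 2 of 3 on its coding transcripts), with intervals that included 0. For lipl-1 the difference was 0.54 (SE 0.39, 95% interval -0.37 to 1.46), and for lipl-4 it was 0.46 (SE 0.30, 95% interval -0.26 to 1.17), each higher in 2 of 3 pairs. lipl-7 had a difference of 0.15 (SE 0.16, 95% interval -0.24 to 0.53) and lipl-6 one of -0.07 (SE 0.30, 95% interval -0.78 to 0.64). The intervals of lipl-1 to lipl-5 all still held a doubling. When the replicate number took the place of the table as a block, the fitted values stayed as they were and their SE was 0.30 for lipl-2, 0.51 for lipl-3, and 0.26 for lipl-5. These 3 members were then at an unadjusted p below 0.05 by limma, where 3.04% of all genes were higher at that level, each with an adjusted p of 1.00.

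**Figure D2:**
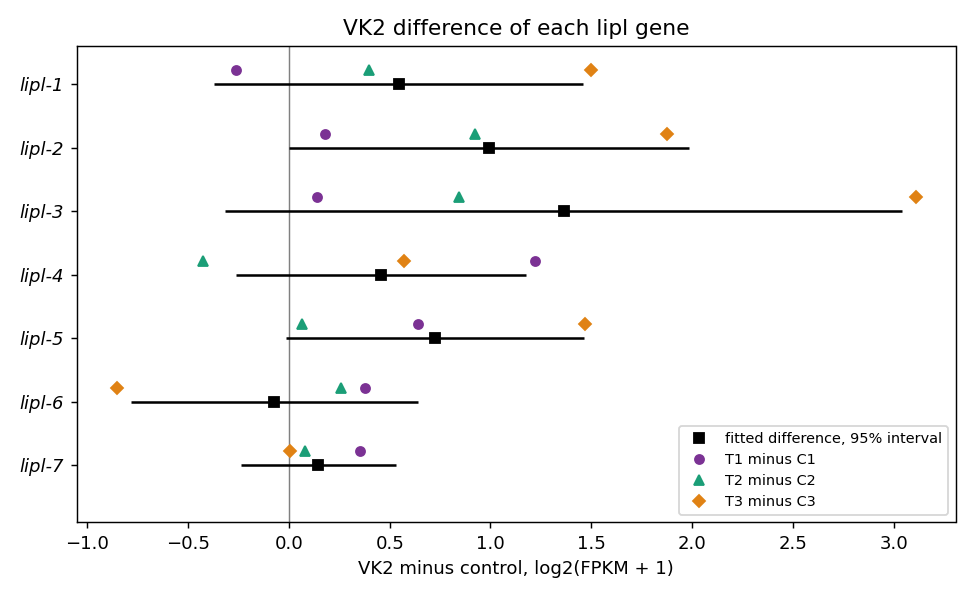
VK2 minus control for each of the 7 lipl genes, on the scale of log2(FPKM + 1). Black squares are the differences fitted by limma over 6 libraries with their 95% intervals, and coloured symbols are the 3 pairs of libraries with the same number. The interval of lipl-2, 0.0025 to 1.98, was the only one that did not include 0, and the largest spread among pairs was that of lipl-3, between 0.14 and 3.11.

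As a family, 6 of the 7 members had a fitted difference above 0, where 55.1% of all genes did, and their median was 0.54, against 0.02 over all genes. A fitted difference of at least 1.5 times higher was seen in 3 members, lipl-2, lipl-3, and lipl-5, and in 3.33% of all genes. None of the 7 was at least 1.5 times lower (1.68% of all genes). The members were not independent of each other, since lipl-1, lipl-2, lipl-3, and lipl-5 varied together across the libraries.

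These counts turned on the control libraries C2 and C3. Without C3, 0 members were at least 1.5 times higher, where 2.5% of all genes were, and the family median was 0.35. The differences of the 4 genes then were 0.05 for lipl-1, 0.47 for lipl-2, 0.41 for lipl-3, and 0.35 for lipl-5, all smaller than with all libraries, and that of lipl-6 turned to 0.26. The spread was smaller too, and lipl-2 (SE 0.18) and lipl-5 (SE 0.14) were then at an unadjusted p below 0.05 by limma. At that level 3.76% of all genes were higher, and the limma adjusted p was 0.681 for both members. Without C2, 5 members were at least 1.5 times higher, where 7.73% of all genes were, and the family median was 0.81. With C3 as the only control left in the second table, lipl-5 then had a difference of 1.08 (SE 0.21) and the smallest adjusted p of any member in any fit to both tables, 0.271. Leaving out T1 or C1 raised lipl-1 to 0.95 and left lipl-4 at 0.07.

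**Figure D3:**
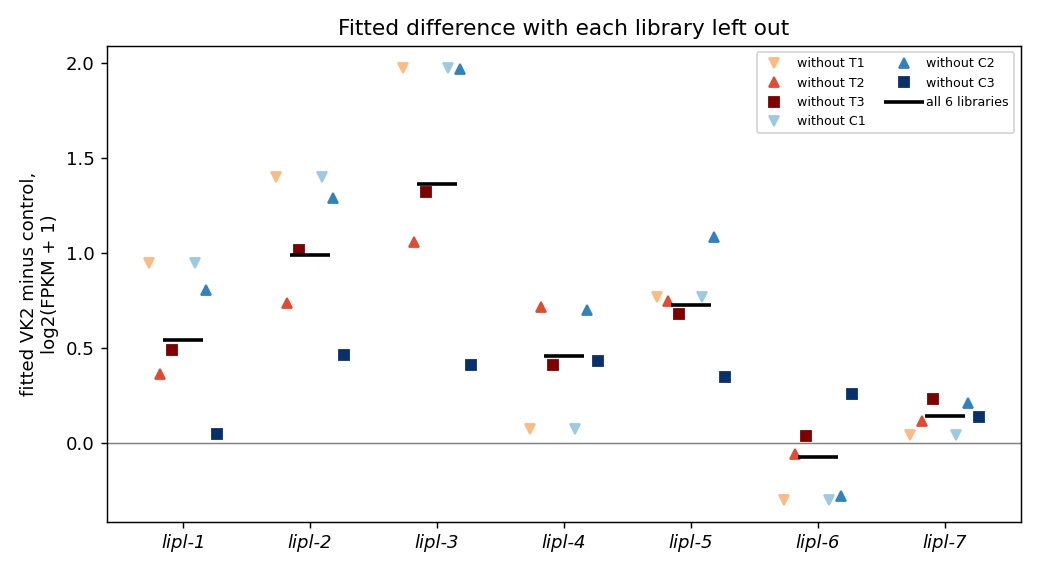
Fitted VK2 minus control difference of each lipl gene, on the scale of log2(FPKM + 1), with each of the 6 libraries left out in turn. Orange and red symbols leave out a VK2 library, blue symbols leave out a control library, and black bars give the value from all 6 libraries. Without C3 (dark blue squares) lipl-1 was at 0.05, lipl-2 at 0.47, lipl-3 at 0.41, and lipl-5 at 0.35.

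The second table was also taken on its own. Its libraries are part of the fit to both tables, so it is no separate check of that fit. T2 and T3 were both above C2 and C3 for lipl-1, lipl-2, lipl-3, and lipl-5, a pattern seen in 11% of all genes, and for 0 of the 7 members were both below (13.9% of all genes). For lipl-5 this held only with the non-coding ZK6.7b counted, since on its coding transcripts T2 was below C2. With 2 libraries a group, the limma difference was 1.98 (SE 0.84) for lipl-3, 1.398 (SE 0.48) for lipl-2, 0.95 (SE 0.44) for lipl-1, and 0.77 (SE 0.42) for lipl-5, with 0 genes at an adjusted p below 0.05. At an unadjusted p below 0.05 were 1.4% of all genes, with lipl-2 the only member. lipl-4 had a difference of 0.07 (SE 0.31), lipl-6 one of -0.30 (SE 0.37), and lipl-7 one of 0.04 (SE 0.21). The median over the members was 0.77, against 0.02 over all genes. It was 0.17 without C3 and 1.41 without C2. In that last fit C3 was the lone control and its spread was assumed to be that of the VK2 libraries, and 23.6% of all genes, with 5 of the 7 members (lipl-1, lipl-2, lipl-3, lipl-5, and lipl-6), were at an adjusted p below 0.05.

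The low values of C3 were seen against its fellow control as well as against VK2. C2 minus C3 had a median of 1.29 over the members, against 0.16 over all genes, and 4 of 7 members, lipl-1, lipl-2, lipl-3, and lipl-5, were lower in C3 than in C2 by at least 1.5 times, where 20.4% of all genes were. The level of lipl-3 in C2 was 12.2 times that in C3. T3 minus C2 was between -0.12 and 0.43 for every one of the 7 members. T2 minus C2 ran wider, between -0.42 for lipl-4 and 0.92 for lipl-2, with lipl-3 at 0.84. C3 was the lowest library of the second table for 6 of 7 members, where it was the lowest for 49% of all genes.

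Whether the VK2 difference was the same in both tables was tested as an interaction, with the second table's spread standing in for the first, which has 1 library a group. None of the members had an interaction at an unadjusted p below 0.05 (1.81% of all genes), and 0 of all genes had one at an adjusted p below 0.05 by limma. lipl-4 came nearest, with a difference that was smaller in the second table by a log2 value of -1.15 (limma adjusted p = 1.00).

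The transcripts of lipl-4, and those of lipl-5, varied differently across the libraries. Each of the other 5 members had 1 listed transcript. K04A8.5a of lipl-4 had 11.7, 3.63, and 1.81 FPKM in T1, T2, and T3, against 5.03, 1.87, and 1.45 FPKM in C1, C2, and C3, and was higher with VK2 in 3 of 3 pairs (fitted log2 difference 0.65, SE 0.30). K04A8.5b of lipl-4 had 10.2, 0.834, and 5.096 FPKM in T1, T2, and T3, against 3.78, 4.45, and 2.87 FPKM in C1, C2, and C3 (fitted log2 difference 0.10, SE 0.59). K04A8.5a made up 53.4%, 81.3%, and 26.2% of the gene's FPKM in T1, T2, and T3, and 57.1%, 29.6%, and 33.6% in C1, C2, and C3, so the VK2 libraries of the second table lay on either side of both controls. Of 22031 transcripts fitted by limma, 0 had an adjusted p below 0.05.

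For lipl-5, 4 transcripts were listed in the first table and 6 in the second. The non-coding ZK6.7b was listed only in the second table, with 54.2 and 51.5 FPKM in T2 and T3, against 46.5 and 22.9 FPKM in C2 and C3, or between 46.5% and 58.2% of the gene's sum in each library. The first table lists coding transcripts only. The coding transcripts alone summed to 38.7, 47.9, and 59.2 FPKM in T1, T2, and T3, against 24.4, 51.0, and 16.4 FPKM in C1, C2, and C3. On that sum T2 was below C2, so the groups overlapped in the second table.

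Single coding transcripts of lipl-5 varied more than their sum. ZK6.7d had 14.7, 13.5, and 43.0 FPKM in T1, T2, and T3, against 10.1, 29.8, and 0.922 FPKM in C1, C2, and C3. ZK6.7a.2 had 18.5, 24.4, and 3.00 FPKM in T1, T2, and T3, against 10.99, 3.77, and 11.7 FPKM in C1, C2, and C3. Within the second table, libraries high in one of these were low in the other, and neither separated the groups. The division of reads among the transcripts of a gene is an estimate.

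**Figure D4:**
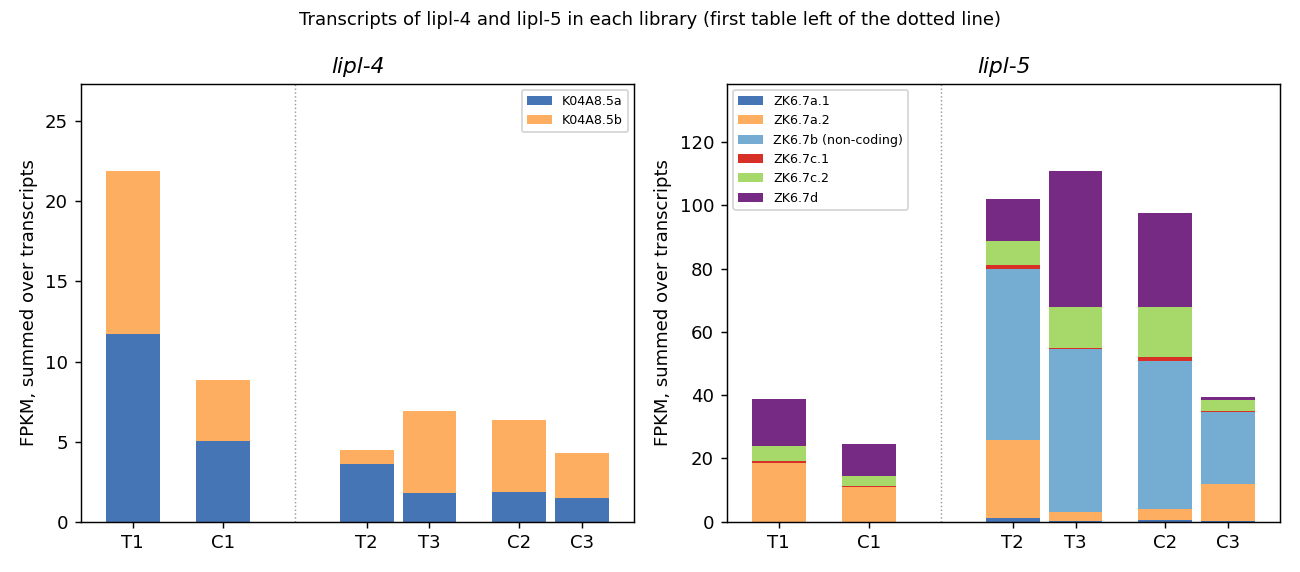
Transcripts of lipl-4 (left) and lipl-5 (right) in every library, in FPKM stacked over the transcripts listed, VK2 (T) left of control (C) within each table. The dotted line divides the first table from the second. The non-coding ZK6.7b appears only in the second table, between 22.9 FPKM in C3 and 54.2 FPKM in T2.

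Likeness among members was described by Pearson r over the 6 libraries, after the mean of each table was taken away, with 4 of the 6 values from the second table and C3 at an end in most of them. lipl-3 had an r of 0.99 with lipl-2 and with lipl-1, and lipl-1 and lipl-2 had an r of 0.96. lipl-5 had an r of 0.93 with lipl-3, of 0.90 with lipl-2, and of 0.86 with lipl-1. lipl-6 ran opposite to these 4, with an r between -0.88 and -0.72. lipl-4 was apart from lipl-1, lipl-2, and lipl-3 (r between 0.12 and 0.27) and nearer to lipl-5 (0.61) and lipl-7 (0.65).

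Patterns were compared with 3485 genes outside the family that had enough variation and a symbol with a hyphen. Genes with only a sequence name were left out. The patterns nearest to lipl-4 were those of msrp-5 (r = 0.987), scrm-6 (0.983), and slc-36.4 (0.980). Nearest to lipl-5 were gst-35, a glutathione S-transferase (r = 0.999), gba-4, related to the lysosomal glucosylceramidase (0.994), and the C-type lectin gene clec-125 (0.994). lipl-1 was nearest to dro-1 (r = 0.998), ttr-3 (0.997), and the acid ceramidase gene asah-1 (0.996). lipl-2 was nearest to the major sperm protein gene msp-63 (r = 0.993), and lipl-3 to nspc-10 (0.997). lipl-6 was nearest to zig-6 (r = 0.998) and lipl-7 to scl-23 (0.999). With 6 libraries such values are common: of the 3485 genes compared, between 21, for lipl-4, and 137, for lipl-1, had an r above 0.95.

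Genes taken here as candidate regulators of the family had a median difference close to that of all genes. Whether each of them acts on lipl genes was not tested. Of this list of 20 genes, all had a mean FPKM high enough to be fitted, and 15 had a fitted difference above 0 (55.1% of all genes did). Their median was 0.06, and 0 were at an unadjusted p below 0.05 by limma. The count above 0 rested on the first table: without T1 or C1, 8 of the 15 turned below 0 (daf-12, elt-2, nhr-49, nhr-66, nhr-80, mxl-3, pha-4, and sbp-1). As mxl-2 and lin-35 turned above 0, 9 of the 20 were then above 0, where 54.3% of all genes were. mxl-3, the repressor that fasting lowers, had 87.4, 59.1, and 69.5 FPKM in T1, T2, and T3, against 48.0, 68.5, and 97.0 FPKM in C1, C2, and C3. It was higher in T1 than in C1 and lower in T2 and T3 than in their controls, so that its fitted log2 difference of 0.06 (SE 0.28) turned to -0.34 without T1 or C1. hlh-30, the activator, had 61.2, 73.5, and 72.5 FPKM in T1, T2, and T3, against 50.02, 70.8, and 62.8 FPKM in C1, C2, and C3, a fitted log2 difference of 0.18 (SE 0.13) that was above 0 in 3 of 3 pairs. daf-16, the FOXO factor that lipl-4 depends on in worms without a germline, had a fitted log2 difference of 0.17 (SE 0.14).

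Downstream of LIPL-4, 10 of 11 genes of a list were tested, 6 had a difference above 0 (55.1% of all genes did), and the median was 0.03. The receptor genes nhr-49 and nhr-80 had fitted log2 differences of 0.08 (SE 0.15) and 0.05 (SE 0.18), and each turned below 0 without T1 or C1. lbp-8, the carrier, was listed in both tables but was under the minimum mean FPKM of 1, at 0, 1.01, and 0.998 FPKM in T1, T2, and T3 and 0.841, 1.01, and 0 FPKM in C1, C2, and C3. At an unadjusted p below 0.05 by limma, 1 gene of the list was higher, where 2.87% of all genes were. It was acs-2, an acyl-CoA synthetase that feeds mitochondrial β-oxidation under the control of NHR-49. It had 112, 105, and 68.9 FPKM in T1, T2, and T3, against 69.6, 49.6, and 28.1 FPKM in C1, C2, and C3. The groups did not overlap in the second table, and the fitted log2 difference was 1.00 (SE 0.27, limma adjusted p = 1.00).

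Lipases outside the lysosome were divided in direction. Of 24 cytosolic and extracellular lipases and their partners, 15 were tested, 6 had a difference above 0 (55.1% of all genes did), and the median was -0.01. At an unadjusted p below 0.05 by limma, 0 were higher and 1 lower, beside 2.87% and 0.705% of all genes. That gene was lips-3, with 5.42, 7.15, and 6.49 FPKM in T1, T2, and T3, against 6.68, 9.18, and 14.96 FPKM in C1, C2, and C3 (fitted log2 difference -0.56, SE 0.23, limma adjusted p = 1.00). C3 was the highest library here. lips-9 had a fitted log2 difference of -0.47 (SE 0.25) and lips-5 one of 0.32 (SE 0.17). Without C3, lips-3 was at -0.33 and no longer at an unadjusted p below 0.05 by limma, and lips-9 was at -0.20.

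The other genes of the lysosome had values on both sides of 0. Of 41 listed genes 40 were tested, 28 had a difference above 0 (55.1% of all genes did), and the median was 0.07, against 0.02 over all genes, with 0 at an unadjusted p below 0.05 in either direction by limma. The members with the smallest p among those that kept their direction in all pairs were gba-4 (fitted log2 difference 0.90, SE 0.41) and the acid α-glucosidase relatives aagr-1 (0.62, SE 0.31) and aagr-2 (0.33, SE 0.18). Without C3 these were 0.39, 0.24, and 0.16. Other genes of the list had values below 0, such as the cathepsin B relative cpr-3 (-0.93, SE 0.51), gba-3 (-0.54, SE 0.26), and the acid sphingomyelinase gene asm-1 (-0.31, SE 0.17, lower in 3 of 3 pairs), named here after their values were seen. gba-4 had 40.03, 34.2, and 32.4 FPKM in T1, T2, and T3, against 23.6, 30.4, and 8.51 FPKM in C1, C2, and C3, a pattern with C3 lowest, as in lipl-5.

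Of 20 symbols listed for genes known to respond to fasting, 17 were tested, 11 had a difference above 0 (55.1% of all genes did), and the median was 0.24. At an unadjusted p below 0.05, 3 were higher and 0 lower (2.87% and 0.705% of all genes), none past the adjusted threshold. Beside acs-2 these were icl-1, the bifunctional enzyme of the glyoxylate cycle, and fat-5, a palmitoyl-CoA desaturase. icl-1 had 489, 380, and 364 FPKM in T1, T2, and T3, against 332, 296, and 238 FPKM in C1, C2, and C3, so that no VK2 library was below a control library of its table (fitted log2 difference 0.51, SE 0.14, limma adjusted p = 1.00). fat-5 had 40.3, 7.83, and 7.46 FPKM in T1, T2, and T3, against 12.05, 6.73, and 1.43 FPKM in C1, C2, and C3 (fitted log2 difference 1.22, SE 0.42, limma adjusted p = 1.00). The summed level of this list was 1881, 1518, and 1490 FPKM in VK2 worms and 1491, 1457, and 820 FPKM in control worms, lowest in C3 as for 6 of the 7 lipl genes. Without C3 fat-5 was at 0.81.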

How the data were processed

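Paired-end RNA sequencing of whole N2 worms gave 3 VK2 and 3 control libraries from a stranded kit. The authors aligned reads to WBcel235 with HISAT2 (2.1.0) and used Ballgown to calculate FPKM, and deposited FPKM per transcript in 2 tables. The submitters' processing notes also name cutadapt, StringTie, and STAR (2.5.2b), with no role. The first table lists 24354 transcripts, all coding, with 49 lines that had run into each other and were split. The second lists 25370, of which 1129 are non-coding. The tables were thus filtered differently, no source used here says why the libraries were divided, and a batch cannot be told apart from the table. Low FPKM values were tested for steps of whole fragments: their concentration was between 0.138 and 0.193, where simulated whole fragments gave 1, so no read counts could be had.

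FPKM was summed over the transcripts of a gene and log2(FPKM + 1) was fitted with limma (3.58.1, R 4.3.3; trend on) with terms for VK2 and table, over 14191 genes that both tables list and whose mean FPKM was at least 1. A pseudocount of 1 understates the change of low genes. P-values are two-sided and were adjusted by Benjamini-Hochberg over all genes tested. Pairs, the second table alone, the interaction of VK2 with the table, transcripts (mean FPKM of at least 0.5), and 12 gene lists were described beside the same values over all genes. The script was tested on simulated data. Genes named were all members, and regulators fixed by name or at an unadjusted p below 0.05. From each other list, up to 3 genes with the smallest p and the same direction in all 3 pairs were named. For each member, up to 3 genes outside the family with the highest r were named. These had an SD of at least 0.2 and a symbol that is no sequence name. The members and lists were chosen with earlier results of these data known. Positions are from Ensembl release 115. Primers are the study's. Protein and promoter sequences were not used here.

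Deviations from the group means correlated between libraries of the same number (r = 0.881 for T1 and C1, 0.556 for T2 and C2, 0.543 for T3 and C3). They hold the difference between the tables, and the crossed pairs of the second table had an r of 0.608 and 0.613, while C2 minus C3 and T2 minus T3 had an r of -0.11. The fit with the replicate number as a block is therefore given beside the fit with the table. Alternatives were other pseudocounts, filters, scalings, and tests, no table term, the block, the second table alone, the highest transcript, the transcripts shared by both tables, and leaving out each library.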

Additional observations from a re-analysis of the deposited data

How the results depend on the processing

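Over 139 values of the 7 members under the alternatives, 137 kept their direction and 0 had a limma adjusted p below 0.05, the smallest being 0.271 for lipl-5 without C2. Many of these values could not change direction. The fitted differences stay the same by construction without the table term, with the replicate block, without the filter, and under other tests. The second table alone and leaving out T1 or C1 give the same estimates. The count of directions therefore says little about stability. In the second table alone, where leaving out C2 keeps C3 as the lone control, 5 of 7 members and 23.6% of all genes had an adjusted p below 0.05. The 2 that turned were lipl-6, at 0.04 without T3 and 0.26 without C3, with a range of -0.30 to 0.26 on leaving out a library. The family median was between 0.35 and 0.81 over all alternatives, both ends from leaving out a library, and between 0.17 and 1.41 in the second table alone. On leaving out a library, members at least 1.5 times higher numbered between 0 (without C3, 2.5% of all genes) and 5 (without C2, 7.73%). Those at an unadjusted p below 0.05 by limma numbered between 0 (without T2 or T3) and 3 (without C2). Higher at that level were 0.824%, 2.18%, and 6.98% of all genes without T2, T3, and C2. Over all genes, the count at an adjusted p below 0.05 was between 0 and 2 on leaving out a library, with ctb-1 called without T2 and col-108 and scl-13 without C3. Of the 20 candidate regulators, 8 turned below 0 without T1 or C1, and 9 were then above 0 (54.3% of all genes were). Of those named by rule, on leaving out a library mxl-3 was between -0.34 and 0.31, nhr-49 between -0.027 and 0.15, and nhr-80 between -0.063 and 0.15. With the replicate block 588 genes were at an unadjusted p below 0.05, lipl-2, lipl-3, and lipl-5 among them, and 0 at an adjusted one, and the block changed no adjusted call. With the highest transcript in place of the sum, lipl-4 was at 0.10 and lipl-5 at 1.31. The sum of the transcripts listed in both tables, an alternative chosen after seeing the data, left lipl-5 at 0.77 (SE 0.38). The cause of these shifts was not tested. lipl-6 had no value at a mean FPKM of at least 5. With the depth unknown and 3 libraries a group, the intervals set what could be seen.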

Other observations

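Of the 12 lists, the sperm markers held the most genes at an unadjusted p below 0.05 by limma. Of 18 tested, 18 had a fitted log2 difference above 0 (55.1% of all genes did), and the median was 0.59. At an unadjusted p below 0.05 were 12, where 2.87% of all genes were higher at that level. The pair medians were 0.90 for T1 minus C1, 0.07 for T2 minus C2, and 0.91 for T3 minus C3. Without C3 the median was 0.41, and 9 were higher at an unadjusted p below 0.05 by limma, where 3.76% of all genes were. spe-11, a sperm component that the embryo needs, had 32.8, 12.8, and 11.3 FPKM in T1, T2, and T3, against 15.99, 9.08, and 5.84 FPKM in C1, C2, and C3 (fitted log2 difference 0.77, SE 0.21, limma adjusted p = 1.00). T1 was above C1, and T2 and T3 were both above C2 and C3, as in 11% of all genes. The major sperm protein genes msp-10 and msp-49 had fitted log2 differences of 0.75 (SE 0.24) and 0.78 (SE 0.26), each higher in 3 of 3 pairs. They belong to a family of near-identical copies, among which the division of reads is uncertain. The yolk genes had a median of 0.70, with 6 of 6 above 0 (beside the same 55.1%). Their pair medians were -0.15 for T1 minus C1, -0.51 for T2 minus C2, and 2.755 for T3 minus C3, so only the pair that holds C3 was above 0. Without C3, 0 of the 6 yolk genes were above 0, where 42% of all genes were. The germline markers had a median of 0.18, with 17 of 20 above 0 (55.1% of all genes were) and 0 at an unadjusted p below 0.05 by limma. Without C3, 2 of the 20 were above 0, beside the same 42% of all genes.

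The hypodermis markers had a median of -0.21, with 4 of 15 above 0 (55.1% of all genes were). Lower in all 3 pairs were 7 (9.32% of all genes were), among them wrt-10 (fitted log2 difference -0.43, SE 0.19) and the cuticle collagen gene rol-6 (-0.50, SE 0.27). Without C3 these were -0.28 and -0.18. Of the 15, 12 were highest in C3 within the second table, as were lipl-6 and 29.3% of all genes. The neuron markers had a median of -0.08, with 5 of 16 above 0 (beside the same 55.1%), and ric-4 had a fitted log2 difference of -0.18 (SE 0.15). The body wall muscle markers had a median of 0.03, with 9 of 13 above 0 (beside the same 55.1%). At an unadjusted p below 0.05 by limma, 1 was lower, the troponin I gene tni-1 (-0.40, SE 0.16), where 0.705% of all genes were. The intestine markers had a median of 0.02, with 10 of 17 above 0 (beside the same 55.1%), and elt-7, a GATA factor of the intestine, had a fitted log2 difference of 0.26 (SE 0.20). In the second table alone, 1 of the 13 muscle and 3 of the 17 intestine markers were above 0, where 54.3% of all genes were. There 2 of the 15 hypodermis and 3 of the 16 neuron markers were above 0. The intestine marker at least 1.5 times lower was the metallothionein gene mtl-2, named after its values were seen, with 2.61, 7.41, and 7.23 FPKM in T1, T2, and T3, against 5.95, 4.82, and 209.8 FPKM in C1, C2, and C3 (fitted log2 difference -1.70, SE 1.16). Its high value was that of C3 alone.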
